A study of Mus musculus with 24 samples.

Results

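The DNA replication genes described here are 49 mouse genes whose products license, fire and copy replication origins. They were chosen by name for their function, with no measured value in the rule, and are 49 of the 21631 protein-coding genes that the RefSeq table places on an autosome or X. Each was examined in the peak lists of a chromatin immunoprecipitation sequencing (ChIP-seq) study of mouse leukaemia lines that carry a fusion of NUP98, a nuclear pore protein. The fusion partner is HOXA9, HOXD13, JARID1A or NSD1. The sources used here give neither how each line was derived nor whether it is a single clone. All cells were grown in medium with serum, IL-3, IL-6 and SCF, and were exposed to VTP50469, a small molecule that blocks the contact between menin and the histone methyltransferase MLL1, or to the solvent DMSO.

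MLL1 was mapped in all 4 lines. Menin was mapped in those with HOXA9 and HOXD13, and histone H3 trimethylated at lysine 4 (H3K4me3) in the one with HOXA9, which gives 7 pairs of a VTP50469 and a DMSO list. VTP50469 was given at 2 µM; only for NUP98-NSD1 do the labels state 200 nM, while the protocol text says 2 µM. Exposure lasted 96 h, except for MLL1 in NUP98-HOXA9, where the labels give 72 h for both conditions. Each condition has 1 library, so no value has a replicate error, no p-value is given, and counts of these genes are set beside the same count over all protein-coding genes.

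Replication starts when the origin recognition complex, with Cdc6 and Cdt1, loads the MCM2-7 helicase on DNA. The kinases Cdc7-Dbf4 and cyclin E-Cdk2 then turn the helicase on together with Cdc45 and the GINS complex, and polymerases travel with the sliding clamp PCNA. Transcription of many of these genes peaks as cells enter S phase through E2F factors, which bind short sites in their promoters. MLL1 and menin sit together at many active promoters, and H3K4me3 is the promoter mark that MLL-family enzymes write.

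The number of regions in a list is the only depth the files show, and read depth is unknown. For MLL1, NUP98-HOXA9 had 21739 regions after VTP50469 and 22534 in DMSO, NUP98-HOXD13 had 14744 after VTP50469 and 20154 in DMSO, NUP98-JARID1A had 24950 after VTP50469 and 15765 in DMSO, and NUP98-NSD1 had 1036 after VTP50469 and 7113 in DMSO. Menin lists held 403 regions after VTP50469 and 9050 in DMSO in NUP98-HOXA9, and 16706 after VTP50469 and 18826 in DMSO in NUP98-HOXD13. H3K4me3 lists held 9567 regions after VTP50469 and 9443 in DMSO. As a check of cell identity, MLL1 lay at a gene end of 8 to 10 of 12 haematopoietic and myeloid markers in the DMSO lists of NUP98-HOXA9, NUP98-HOXD13 and NUP98-JARID1A and of 4 in NUP98-NSD1, where 41.2% to 45.6% and 22.1% of all genes had one. The same DMSO lists had MLL1 at 2 of 5 lymphoid markers, or 0 in NUP98-NSD1, and at 0 or 1 of 3 erythroid markers, and no list had a region at any of 4 liver and brain markers.

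The promoters shown next carry the sequence feature for which this gene set is known, and are given for helicase subunits with an E2F core within 250 bases before the RefSeq start. A pair of others is added for contrast after their values were seen: Prim1, the catalytic subunit of primase, where almost no list had a region, and Ccne1, encoding cyclin E1, which kept MLL1 in NUP98-NSD1. All are from RefSeq, assembly GRCm38.p6 (mm10), written 5′ to 3′ on the gene's strand, and capitals mark an E2F core on either strand. Mcm7 has another RefSeq promoter with an E2F core in its 250 bases, at chr5:138171884-138172133, which is not shown. The positions are chr8:75109259-75109508 on the plus strand for Mcm5, chr1:128359706-128359955 on the minus strand for Mcm6, chr5:138171267-138171516 on the minus strand for Mcm7, chr10:128014965-128015214 on the plus strand for Prim1 and chr7:38107491-38107740 on the minus strand for Ccne1.
Mcm5: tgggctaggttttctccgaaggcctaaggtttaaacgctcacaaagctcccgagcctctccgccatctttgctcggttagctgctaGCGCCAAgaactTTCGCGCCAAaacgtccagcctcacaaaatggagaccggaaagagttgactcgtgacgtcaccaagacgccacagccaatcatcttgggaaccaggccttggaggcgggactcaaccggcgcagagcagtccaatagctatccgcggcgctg
Mcm6: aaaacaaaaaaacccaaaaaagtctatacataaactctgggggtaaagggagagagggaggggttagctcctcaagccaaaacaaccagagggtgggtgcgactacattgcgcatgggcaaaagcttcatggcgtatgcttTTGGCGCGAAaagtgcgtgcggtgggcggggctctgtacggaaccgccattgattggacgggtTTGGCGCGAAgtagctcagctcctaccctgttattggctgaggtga
Mcm7: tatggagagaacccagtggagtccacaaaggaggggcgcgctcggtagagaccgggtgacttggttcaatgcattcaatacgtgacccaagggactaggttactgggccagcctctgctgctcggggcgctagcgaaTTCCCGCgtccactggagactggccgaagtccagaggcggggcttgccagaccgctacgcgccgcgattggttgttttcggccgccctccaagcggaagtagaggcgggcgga
Prim1: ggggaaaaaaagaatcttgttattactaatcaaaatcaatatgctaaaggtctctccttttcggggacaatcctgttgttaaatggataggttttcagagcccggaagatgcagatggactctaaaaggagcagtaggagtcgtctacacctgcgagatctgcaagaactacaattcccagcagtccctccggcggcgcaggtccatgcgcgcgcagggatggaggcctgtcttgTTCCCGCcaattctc
Ccne1: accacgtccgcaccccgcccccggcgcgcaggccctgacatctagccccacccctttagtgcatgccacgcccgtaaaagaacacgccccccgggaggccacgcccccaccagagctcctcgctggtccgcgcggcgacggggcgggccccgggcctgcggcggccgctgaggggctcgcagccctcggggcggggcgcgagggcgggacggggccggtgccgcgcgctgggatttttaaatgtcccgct

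The E2F core was searched as TTCCCGC, which is its common form, and as TTGGCGC, found in the Mcm5 and Mcm6 promoters shown. The variants TTCGCGC and TTGCCGC were part of the same search. It covered both strands of the 300 bases from 250 before to 50 after each start, and overlapping matches count separately. RefSeq promoters were given for 40 of the 49 genes, 49 promoters in all. An E2F core was found in 29 of these 49 promoters (59.2%), against 12.2% of the 21045 promoters of all protein-coding genes. Mcm6 had 5 matches, at −109, −106, −46, −43 and +25 from the start, where +1 is the first transcribed base and −1 the base before it. Mcm5 had 3 and Mcm3 had 3, those of Mcm3 all after the start, while Mcm2, Pcna and Ccne1 had none of these letters in the window. A CCAAT box lay in 53.1% of the promoters, against 38.5% of all, and a GC box (GGGCGG) in 73.5%, against 46.7%. The cell-cycle element CHR (TTTGAA or TTCGAA) lay in 20.4%, against 17.2% of all. CpG dinucleotides numbered 23 per 300 bases in the median promoter of these genes, against 13 in the median of all. They ran from 1 to 42 among the promoters of these genes. A match is a description of the sequence and does not show that a factor binds.

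Almost all DNA replication genes had MLL1 in 3 of the 4 lines, with and without the inhibitor. A gene end counts as holding a region when any listed region lies within 1 kb of either annotated end. In NUP98-HOXA9, 44 of 49 genes held MLL1 after VTP50469 (45.0% of all protein-coding genes) and 44 in DMSO (45.0% of all). In NUP98-HOXD13, 44 genes held it after VTP50469 (40.6% of all) and 44 in DMSO (45.6% of all). In NUP98-JARID1A it was 45 genes after VTP50469 (47.4% of all) and 44 in DMSO (41.2% of all). NUP98-NSD1 stood apart, with MLL1 at 2 genes after VTP50469 (3.6% of all) and at 26 in DMSO (22.1% of all). The same 44 genes held MLL1 in the DMSO lists of NUP98-HOXA9, NUP98-HOXD13 and NUP98-JARID1A, where 39.3% of all genes did so in all 3, and 26 held it in the DMSO lists of all 4 lines, against 21.0%.

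The 5 genes with no MLL1 at a gene end in any DMSO list were Lig1, Orc1, Orc4, Prim1 and Rfc1. For Orc1, Orc4 and Rfc1 the nearest RefSeq start lies 3749 bp, 2668 bp and 2978 bp inside the annotated gene, and MLL1 lay at that start in both lists of NUP98-HOXA9, NUP98-HOXD13 and NUP98-JARID1A. Orc1, the largest subunit of the origin recognition complex, had an MLL1 region of 736 bp after VTP50469 and 1328 bp in DMSO there in NUP98-HOXA9, with summits at −188 bp after VTP50469 and −65 bp in DMSO from the start. Lig1, the ligase that joins Okazaki fragments, likewise had MLL1 in both lists of these 3 lines at a RefSeq start inside the gene. Counted at RefSeq starts, MLL1 lay at 39 of 40 genes after VTP50469 (47.3% of all) and at 39 in DMSO (47.5% of all) in NUP98-HOXA9. Prim1 was the exception: its single region in the 14 lists was a 224 bp MLL1 region in VTP50469-treated NUP98-JARID1A, at percentile 7.76 of fold in that list, with its summit 11 bp after the start.

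**Figure D1:**
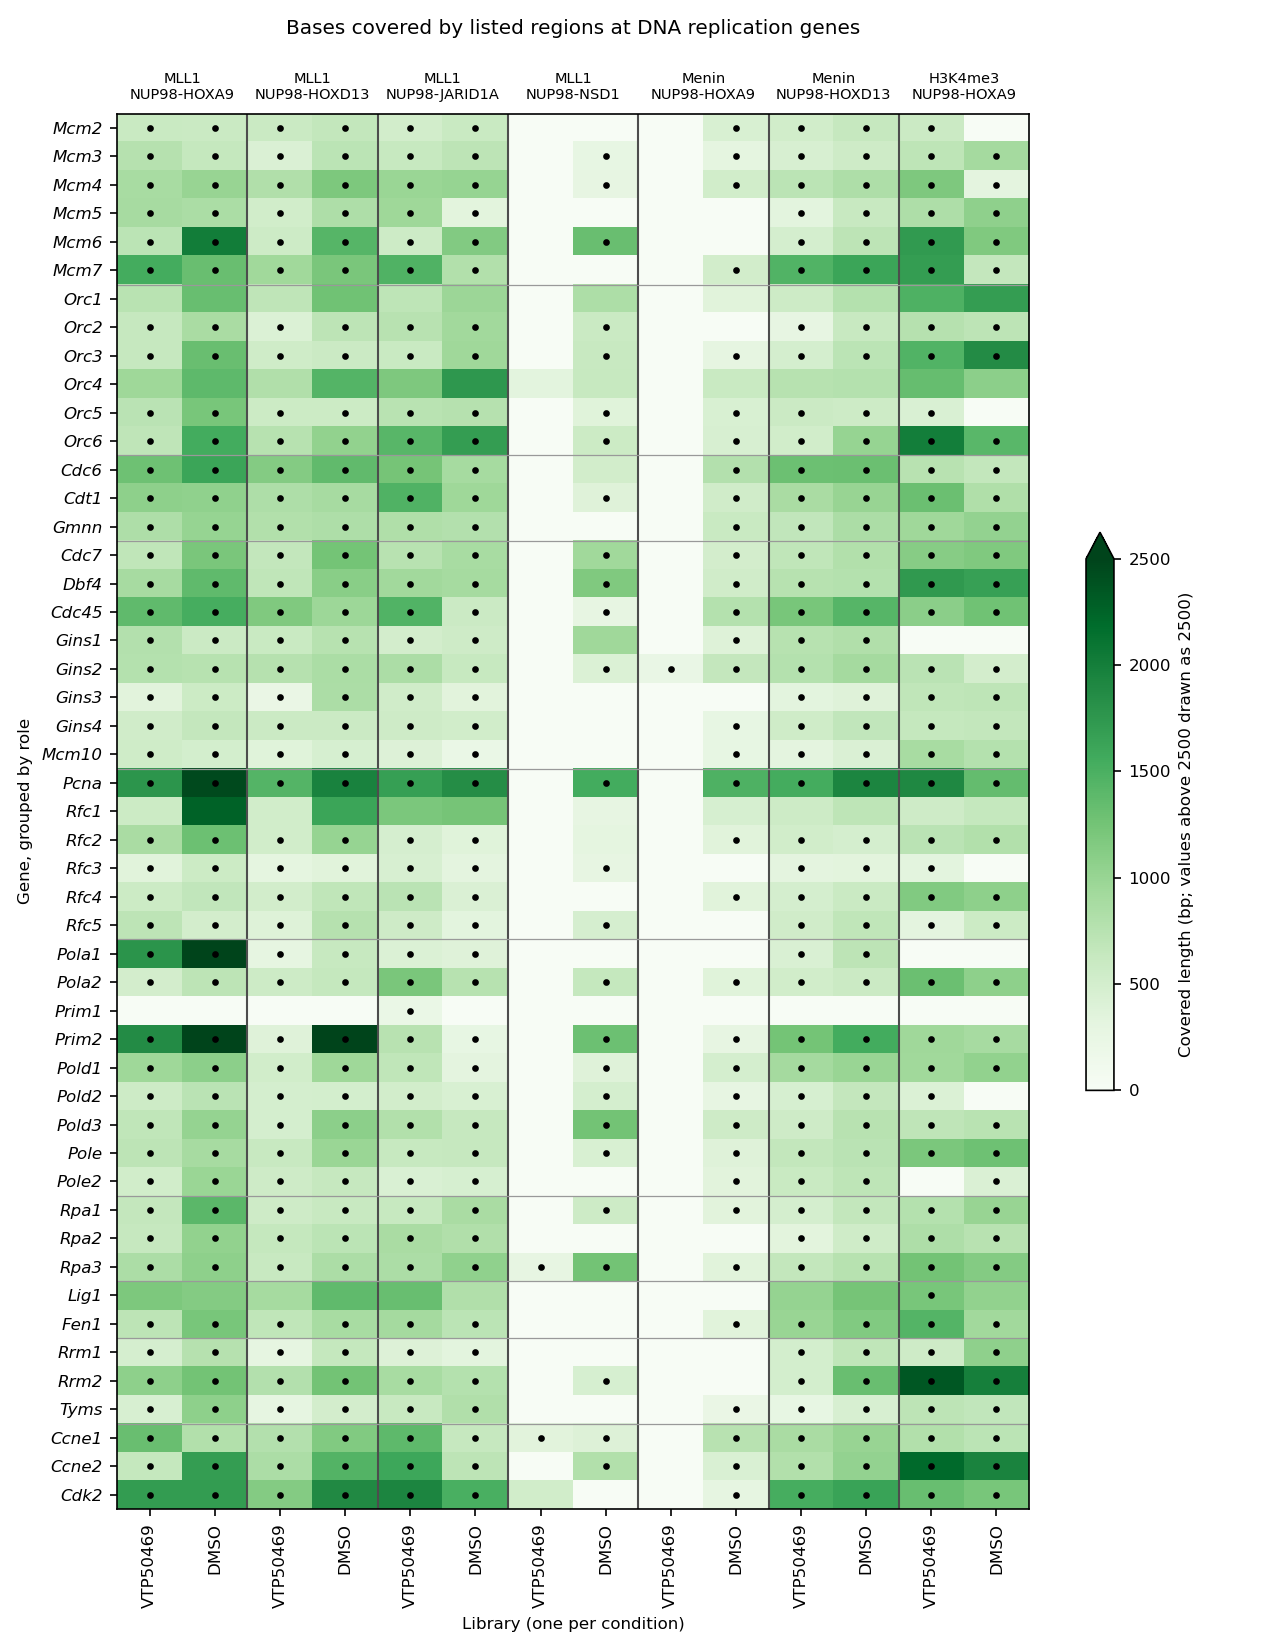
Bases covered by listed regions (colour, bp) at each DNA replication gene and its 2 kb flanks in the 14 libraries, VTP50469 left of DMSO in each pair, with a dot where a region lies at a gene end. The columns of MLL1 in treated NUP98-NSD1 and of Menin in treated NUP98-HOXA9 are nearly empty, with 2 and 1 dots, while 44 or 45 genes carry dots in the MLL1 lists of the other 3 lines.

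Only the strongest region at the ends of each gene, the one with the highest −log10 q, was placed. Where the strand was known, it lay within 1 kb of a RefSeq start, at the 5′ end, and never at the 3′ end alone. Weaker regions were not placed. MLL1 summits had a median position of −46 bp from the RefSeq start after VTP50469 and −23 bp in DMSO in NUP98-HOXA9, over 35 genes each. Menin summits in NUP98-HOXD13 lay at −48 bp after VTP50469 and −57 bp in DMSO, and H3K4me3 summits lay further into the gene, at +269 bp after VTP50469 (34 genes) and +242.5 bp in DMSO (30 genes). In DMSO-treated NUP98-NSD1 the MLL1 median was +93 bp over 21 genes, so this list stood apart from the MLL1 lists of the other lines. Of 48 distinct E2F core positions in 26 of these genes, 45 were inside an MLL1 region after VTP50469 and 46 in DMSO in NUP98-HOXA9, where 64.7% of the 2671 core positions of all protein-coding genes were inside one after VTP50469 and 65.1% in DMSO. Inside an H3K4me3 region were 12 of the 48 after VTP50469 and 8 in DMSO, against 20.4% of all core positions after VTP50469 and 17.5% in DMSO. The count under H3K4me3 was the lower one over all genes too. In both MLL1 lists of NUP98-HOXA9 the strongest region also lay at an end of a neighbouring gene at 13 of 44 genes. Examples are Mcm4 with Prkdc, Orc3 with Rars2 and Dbf4 with Slc25a40, and such a region cannot be assigned to either gene. For MLL1 in DMSO-treated NUP98-NSD1 it was 10 of 26 genes. The share over all protein-coding genes was not computed, so these counts have no background beside them.

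**Figure D2:**
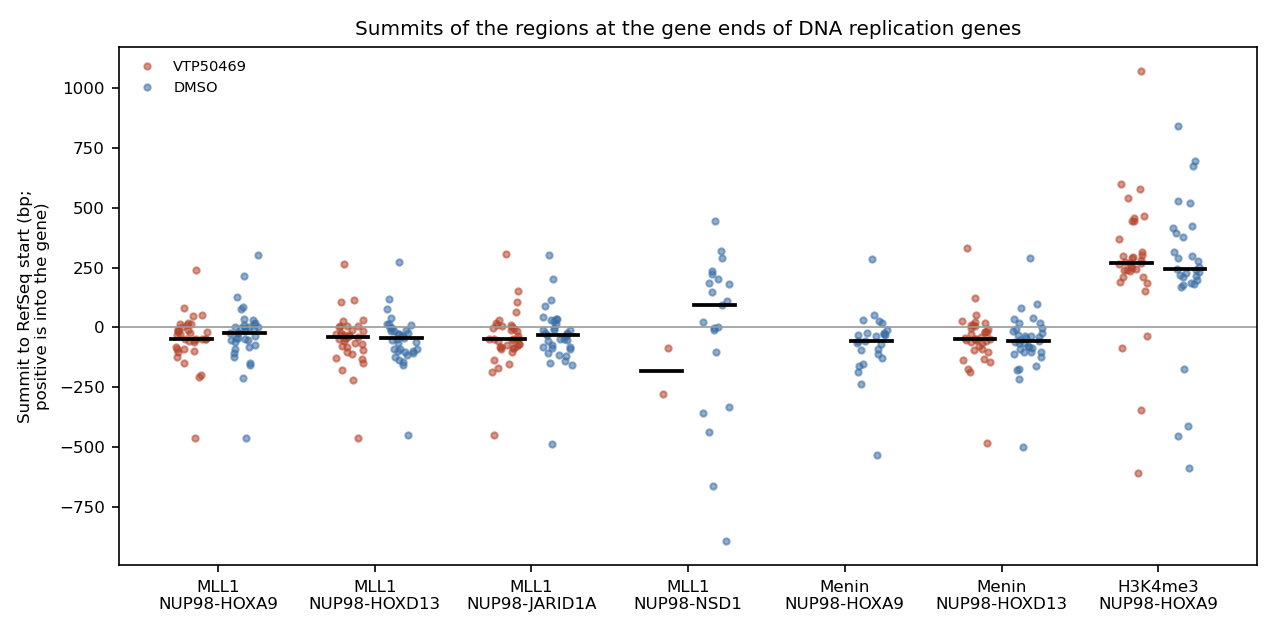
Distance in bp from the RefSeq start to the summit of the strongest region at the gene ends, for VTP50469 and DMSO in each pair. Each point is 1 DNA replication gene with a known start, and black lines are medians. MLL1 and Menin medians lie just before the start in the lines other than NUP98-NSD1, and H3K4me3 medians lie at +269 bp after VTP50469 and +242.5 bp in DMSO.

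After 72 h of VTP50469 in NUP98-HOXA9, no DNA replication gene had lost its MLL1 region, and most regions were shorter. None of the 44 gene ends was lost (95% Wilson interval 0% to 8.03%), against 3.93% of all protein-coding gene ends with a DMSO region, and none of the 5 other genes gained one, against 3.33% of all. Covered length, which counts the bases of a gene and its 2 kb flanks that any region overlaps, summed to 40924 bp after VTP50469 and 57583 bp in DMSO, or 71.1%, and over all genes 76.6% was left. It was shorter at 36 of 48 genes (75.0%) and longer at 11 (22.9%), against 63.0% shorter and 36.8% longer over all genes. The median gene had 72.8% of its DMSO length, against 89.7% over all genes. At most 50% of the DMSO length was left at 7 of 48 genes, against 12.8% of all.

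The longest DMSO cover by MLL1 in NUP98-HOXA9 was at Prim2, the large primase subunit, with 1874 bp after VTP50469 and 3347 bp in DMSO. Pola1, the catalytic subunit of polymerase alpha, had 1785 bp after VTP50469 and 3037 bp in DMSO, and Pcna had 1777 bp after VTP50469 and 2459 bp in DMSO. All 3 were shorter after VTP50469. For Pola1 most of this lay deep in the gene, where a DMSO region of 1552 bp had its summit 263684 bp from the start, and the region at the start itself was 401 bp after VTP50469 and 557 bp in DMSO. The lowest ratios were at Rfc1, the large clamp-loader subunit, with 574 bp after VTP50469 and 2264 bp in DMSO (25.4%). Mcm6 had 717 bp after VTP50469 and 2018 bp in DMSO (35.5%), and Ccne2, encoding cyclin E2, had 642 bp after VTP50469 and 1690 bp in DMSO (38%). Tyms, Orc6, Rpa1 and Orc3 were the others at or below 50%. Cover was longer at Ccne1, with 1314 bp after VTP50469 and 796 bp in DMSO (165%). Rfc5, another clamp-loader subunit, had 704 bp after VTP50469 and 501 bp in DMSO (141%), and Gins1, a GINS subunit, had 790 bp after VTP50469 and 585 bp in DMSO (135%). All 6 origin recognition complex genes were shorter and together kept 57.3%, while the 6 helicase genes kept 83.7%.

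NUP98-HOXD13 also kept MLL1 at every DNA replication gene that held it at a gene end in DMSO. None of 44 gene ends was lost (interval 0% to 8.03%), against 12.2% of all gene ends with a DMSO region, and none of the other 5 was gained, against 1.04%. Cover summed to 30510 bp after VTP50469 and 47362 bp in DMSO, or 64.4%, against 58.3% over all genes. It was shorter at 46 of 48 genes and longer at 1, Cdc45, with 1167 bp after VTP50469 and 959 bp in DMSO (122%), against 89.7% and 10.2% of all genes. The median was 67.6% of the DMSO length, against 66.7% over all genes. At or below 50% were 7 of 48 genes (14.6%), against 30.4% of all. Without the flanks it was 16 of 48 (33.3%), against 38.6% of all.

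Prim2 had 379 bp after VTP50469 and 2729 bp in DMSO (13.9%) in NUP98-HOXD13, the lowest ratio. It was followed by Gins3 with 228 bp after VTP50469 and 843 bp in DMSO (27.0%) and Rfc1 with 525 bp after VTP50469 and 1619 bp in DMSO (32.4%). Of the 5 DMSO regions of Prim2 the treated list held only the one at the gene end. Mcm6, Pold3, Pola1 and Rrm1 were also at or below 50%. Gins4 had 583 bp in both lists. Pcna, with 1438 bp after VTP50469 and 1956 bp in DMSO, and Cdk2, with 1141 bp after VTP50469 and 1893 bp in DMSO, had the longest DMSO cover after Prim2. The 9 polymerase and primase genes kept 47.7%, the lowest share of any role with more than 3 genes, and Cdc6, Cdt1 and Gmnn, which govern helicase loading, kept 90.1%. Without Prim2 the other polymerase genes kept 64.8%.

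Unlike NUP98-HOXA9 and NUP98-HOXD13, NUP98-JARID1A had longer MLL1 cover after VTP50469, at these genes as over the genome. None of 44 gene ends was lost (interval 0% to 8.03%), against 1.01% of all, and Prim1 was gained, against 11.3% of all gene ends without a DMSO region. When both lists were cut to the same number of regions, 2 of 44 ends were lost, against 10.4% of all, and Prim1 was not gained. Cover summed to 42019 bp after VTP50469 and 36306 bp in DMSO, or 116%, against 131% over all genes. It was longer at 29 of the 48 genes with DMSO cover and shorter at 19, against 72.4% longer and 27.4% shorter over all genes. The median was 112%, against 129% over all genes, and only Mcm6 was at or below 50%, which is 2.08% of the genes against 2.51% of all.

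The highest ratios in NUP98-JARID1A were at Mcm5, with 951 bp after VTP50469 and 339 bp in DMSO (281%), among genes with at least 300 bp in DMSO. Cdc45 had 1460 bp after VTP50469 and 581 bp in DMSO (251%), and Ccne2 had 1599 bp after VTP50469 and 706 bp in DMSO (226%). With lists cut to equal length, Cdc45 was at 79.9%. The lowest were at Mcm6, with 561 bp after VTP50469 and 1143 bp in DMSO (49.1%). Orc3 had 601 bp after VTP50469 and 941 bp in DMSO (63.9%), and Orc4 had 1174 bp after VTP50469 and 1756 bp in DMSO (66.9%). Pcna, with 1679 bp after VTP50469 and 1851 bp in DMSO, and Orc4 and Orc6 had the longest DMSO cover. All 6 origin recognition complex genes were shorter, with 76.2% of their summed DMSO length, while Ccne1, Ccne2 and Cdk2 together had 173%. The difference between these lines in the direction of the summed length was not tested.

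**Figure D3:**
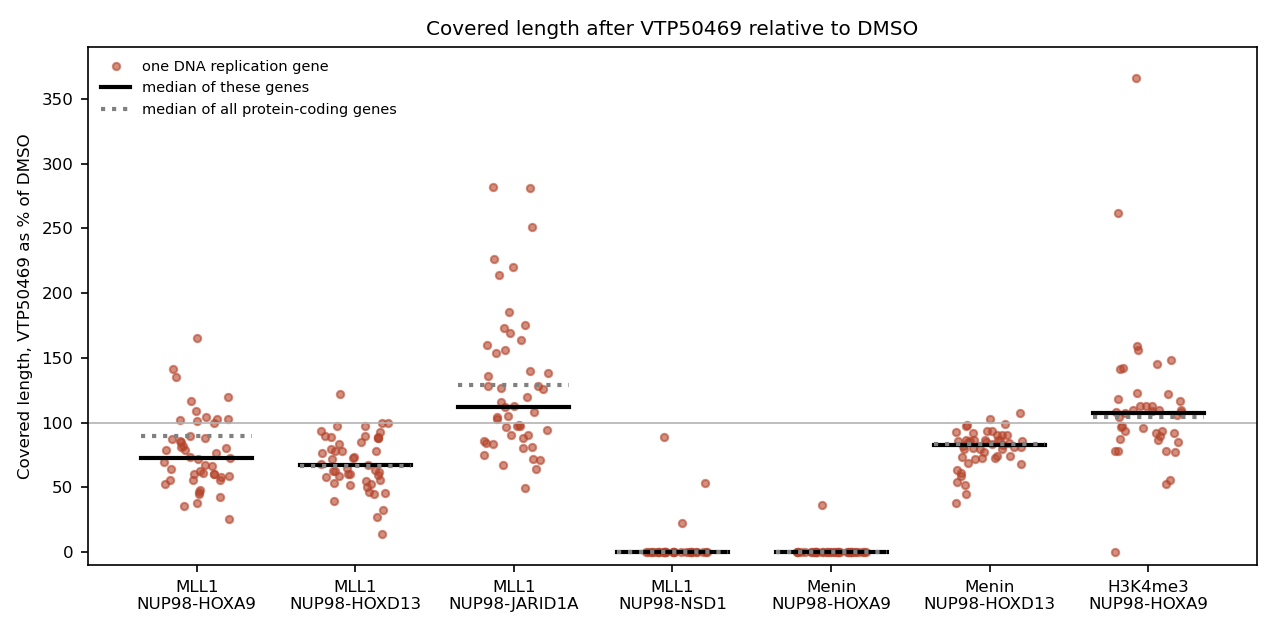
Covered length after VTP50469 as a percentage of DMSO, 1 point per DNA replication gene with DMSO cover, in each of the 7 pairs; the black line is the median of these genes and the dotted line the median of all protein-coding genes. Medians are 72.8% and 67.6% for MLL1 in NUP98-HOXA9 and NUP98-HOXD13 and 112% in NUP98-JARID1A, and 0% in NUP98-NSD1 and for Menin in NUP98-HOXA9.

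After VTP50469, regions away from gene ends and starts covered a smaller share of their DMSO length than the others in NUP98-HOXA9 and NUP98-HOXD13. In NUP98-JARID1A they covered a larger share, and in NUP98-NSD1 none of them was kept. Regions were called away when they touched neither an end nor a RefSeq start of the gene itself within 1 kb. They lay inside genes or, as at Pcna, Cdk2 and Rrm2, in the flanks. Neighbouring genes were not considered, so an away region can lie at the end or start of another gene. Genes without a RefSeq promoter, among them Prim2, Ccne2, Rfc2 and Gins1, were judged by their ends alone. Away regions of such genes can therefore lie at a start that was not given. Prim2 alone had 2810 bp of away cover in DMSO in NUP98-HOXA9 and 1826 bp in NUP98-HOXD13. In NUP98-HOXA9 these away regions covered 6608 bp after VTP50469 and 13405 bp in DMSO, or 49.3%, and the regions at ends and starts 34316 bp after VTP50469 and 44178 bp in DMSO, or 77.7%. Over all genes the shares were 67.9% and 80.4%. In NUP98-HOXD13 away regions covered 2070 bp after VTP50469 and 7202 bp in DMSO (28.7%), and those at ends and starts 28440 bp after VTP50469 and 40160 bp in DMSO (70.8%), against 48.0% and 61.4% over all genes. All away regions were gone from 5 of 15 genes in NUP98-HOXA9 (33.3%, interval 15.2% to 58.3%), against 20.2% of all genes with one, and from 6 of 10 in NUP98-HOXD13 (60.0%, interval 31.3% to 83.2%), against 35.8%. After cutting both lists to the same number of regions, the NUP98-HOXD13 count was 2, and the share over all genes was not computed for the cut lists. In NUP98-JARID1A away regions covered 4957 bp after VTP50469 and 3175 bp in DMSO (156%), and those at ends and starts 37062 bp after VTP50469 and 33131 bp in DMSO (112%), against 185% and 119% over all genes, and 1 of 7 genes lost its away region, against 13.2%. In NUP98-NSD1 away regions covered 527 bp after VTP50469 and 4195 bp in DMSO (12.6%), and the others 963 bp after VTP50469 and 16734 bp in DMSO (5.75%), against 7.22% and 10.0% over all genes. The 527 bp is the flank region of Cdk2, which had none in DMSO, so no away region was kept. All 8 genes with an away region in DMSO lost it (100%, interval 67.6% to 100%), against 90.6% of all genes with one.

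Mcm6, a subunit of the MCM2-7 helicase (chromosome 1, 128331575 to 128359705), had an away region in the DMSO lists of all 4 lines and in no VTP50469 list. It was singled out after its values were seen. The region's summit lay 2036 bp into the gene in DMSO in NUP98-HOXA9, 2006 bp in NUP98-HOXD13, 2057 bp in NUP98-JARID1A and 2093 bp in NUP98-NSD1, so it lay at nearly the same place in every line. It was 1024 bp wide in NUP98-HOXA9, 420 bp in NUP98-HOXD13, 370 bp in NUP98-JARID1A and 480 bp in NUP98-NSD1. A smaller DMSO region, of 228 bp in NUP98-HOXA9 and 309 bp in NUP98-HOXD13, stood between it and the start. Its fold, the authors' own value, was 8.51, 4.44, 5.49 and 7.93 in these lists, whose median folds were 8.26, 8.57, 8.47 and 6.34. The region at the Mcm6 start stayed in NUP98-HOXA9, with 717 bp after VTP50469 and 766 bp in DMSO, in NUP98-HOXD13, with 560 bp after VTP50469 and 703 bp in DMSO, and in NUP98-JARID1A, with 561 bp after VTP50469 and 773 bp in DMSO, and in NUP98-NSD1, where it was 835 bp wide in DMSO, it was lost.

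Among all protein-coding genes, 816 had an away region in all 4 DMSO lists and 17 of them (2.08%) had none in any VTP50469 list. Mcm6, Pcna and Cdc6 were the DNA replication genes among the 816, and Mcm6 was the single one among the 17. Mcm6 was also the only one of 48 genes at or below 50% of its DMSO MLL1 length in all 3 lines treated at 2 µM, against 1.01% of all genes with cover in the 3 DMSO lists. With equal-length lists Mcm6 stood at 35.5% in NUP98-HOXA9 and 49.1% in NUP98-JARID1A. It stood at 79.7% in NUP98-HOXD13, where the cut drops the weaker DMSO regions. In the cut NUP98-NSD1 lists no DNA replication gene lost its away regions, so the loss at Mcm6 was not seen there either. No Menin list had the away region, and H3K4me3 reached over 1728 bp after VTP50469 and 1167 bp in DMSO, starting after the start site.

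**Figure D4:**
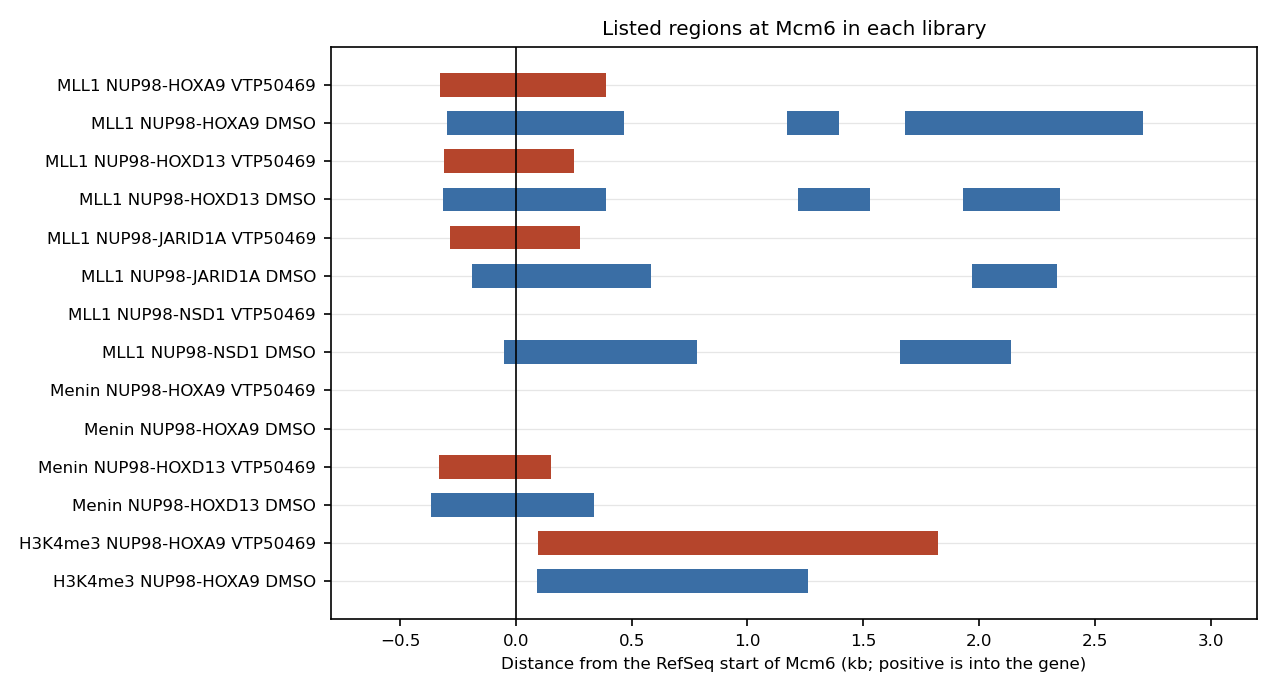
Listed regions at the first kilobases of Mcm6 in the 14 libraries, as distance in kb from the RefSeq start, VTP50469 (red) above DMSO (blue) in each pair. A region near 2 kb into the gene stands in the 4 DMSO lists of MLL1 and in no VTP50469 list.

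NUP98-NSD1, for which the labels give 200 nM, lost MLL1 from nearly all DNA replication genes that had it and from most other genes that had it. The treated list was short, with 1036 regions against 7113 in DMSO, and after cutting the DMSO list to its 1036 strongest regions only 2 of these genes had DMSO MLL1. Of 26 gene ends 24 were lost (92.3%, interval 75.9% to 97.9%), against 86.2% of all gene ends with a DMSO region, and none of the other 23 was gained, against 0.712%. Cover summed to 1490 bp after VTP50469 and 20929 bp in DMSO (7.12%), against 9.4% over all genes. All 32 genes with DMSO cover were shorter and none longer, against 99.0% and 0.991% of all, and 30 of the 32 were at or below 50%, against 94.1%.

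Ccne1, with 351 bp after VTP50469 and 396 bp in DMSO, and Rpa3, the smallest subunit of the single-strand binding protein RPA, with 282 bp after VTP50469 and 1257 bp in DMSO, kept a region at their 5′ ends in NUP98-NSD1. Orc4 had 330 bp after VTP50469 and 623 bp in DMSO at a RefSeq start inside its gene. Cdk2, the cyclin E partner kinase, had 527 bp after VTP50469 and none in DMSO, in the flank beyond its 3′ end. Lost were, among others, Pcna with 0 bp after VTP50469 and 1549 bp in DMSO, Mcm6 with 0 bp after VTP50469 and 1315 bp in DMSO, Prim2 with 0 bp after VTP50469 and 1290 bp in DMSO, and the Cdc7 activator Dbf4 with 0 bp after VTP50469 and 1166 bp in DMSO. The remaining lost genes were Ccne2, Cdc45, Cdc7, Cdt1, Gins2, Mcm3, Mcm4, Orc2, Orc3, Orc5, Orc6, Pola2, Pold1, Pold2, Pold3, Pole, Rfc3, Rfc5, Rpa1 and Rrm2, with 270 to 1254 bp in DMSO.

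**Figure D5:**
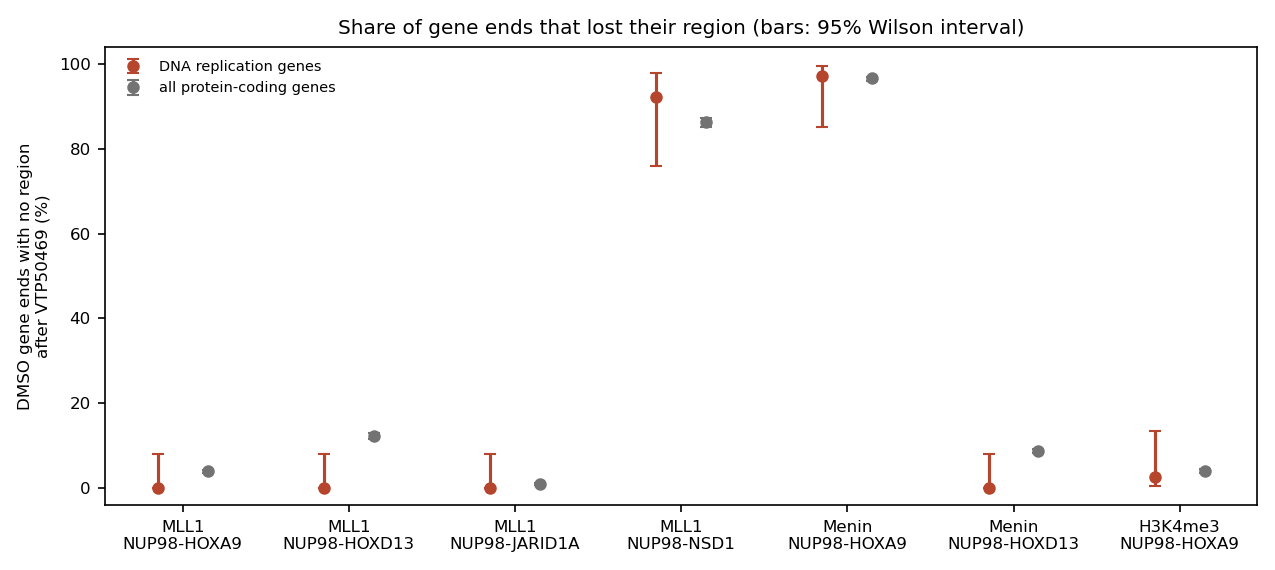
Share of gene ends with a DMSO region that had none after VTP50469, for DNA replication genes (left) and all protein-coding genes (right) in each pair; points are percentages and bars 95% Wilson intervals that cover counting error over genes only. The shares of these genes are 0% in 4 pairs, 2.63% for H3K4me3, 92.3% for MLL1 in NUP98-NSD1 and 97.1% for Menin in NUP98-HOXA9.

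After VTP50469 Menin was absent from nearly all of these genes in NUP98-HOXA9 and was kept at them in NUP98-HOXD13; the difference between the lines was not tested. In NUP98-HOXA9, Menin lay at 1 gene after VTP50469 (0.971% of all) and at 34 in DMSO (27.8% of all). Of the 34 ends 33 were lost (97.1%, interval 85.1% to 99.5%), against 96.6% of all, and none of 15 was gained, against 0.0256%. Gins2, a GINS subunit, had 236 bp after VTP50469 and 648 bp in DMSO. All 37 genes with DMSO cover were shorter and none longer, against 99.9% and 0.0534% of all. All 37 were also at or below 50%, against 98.7% of all. The longest DMSO lengths were at Pcna (1480 bp), Cdc6 (788 bp) and Cdc45 (774 bp), each with 0 bp after VTP50469. Among the 403 strongest DMSO regions no DNA replication gene had Menin.

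In NUP98-HOXD13, Menin lay at 44 genes after VTP50469 (41.6% of all) and at 44 in DMSO (44.9% of all). None of these ends was lost (interval 0% to 8.03%), against 8.74% of all, and none was gained, against 1.11%. Cover summed to 32656 bp after VTP50469 and 40559 bp in DMSO (80.5%), against 79.0% over all genes, with 46 of 48 genes shorter and 2 longer (82.6% and 17.2% over all genes), and 2 of 48 were at or below 50%, against 13.5%. Without the flanks 6 of 48 were (12.5%), against 19.2%. The 2 were Rrm2, a ribonucleotide reductase subunit, with 495 bp after VTP50469 and 1318 bp in DMSO (37.6%), and Orc2 with 274 bp after VTP50469 and 608 bp in DMSO (45.1%), followed by Orc6 with 519 bp after VTP50469 and 1007 bp in DMSO (51.5%). Longer by a little were Rfc2, a clamp-loader subunit, with 522 bp after VTP50469 and 488 bp in DMSO, and Orc5 with 582 bp after VTP50469 and 566 bp in DMSO. The longest DMSO cover was at Pcna, with 1541 bp after VTP50469 and 1928 bp in DMSO, and at Cdk2, with 1526 bp after VTP50469 and 1634 bp in DMSO.

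Every one of these genes with Menin at a gene end also had MLL1 at a gene end in that line and condition. Away from gene ends this did not hold. In treated NUP98-HOXD13, for example, Prim2 had Menin regions inside the gene where the MLL1 list had none. In NUP98-HOXA9, MLL1 at 72 h and Menin at 96 h shared 1 gene after VTP50469 (0.957% of all genes) and 34 genes in DMSO (27.7% of all). None of the 49 had Menin without MLL1 after VTP50469 (0.0139% of all) or in DMSO (0.139% of all). MLL1 stood without Menin at 43 genes after VTP50469 (44.1% of all) and at 10 in DMSO (17.3% of all). The 10 were Gins3, Mcm5, Mcm6, Orc2, Pola1, Rfc3, Rfc5, Rpa2, Rrm1 and Rrm2. In NUP98-HOXD13 both proteins lay at the same 44 genes after VTP50469 (38.9% of all) and in DMSO (43.1% of all). The cell line label is the same for the MLL1 and Menin libraries of NUP98-HOXA9, and likewise in NUP98-HOXD13, but their titles carry different number codes, and in NUP98-HOXA9 also another form of the line's code name, which the H3K4me3 libraries share with Menin. The labels do not say whether they come from the same cultures. Times and the number of regions also differ between the MLL1 and Menin lists of NUP98-HOXA9, so absence of a Menin region there is absence from a shorter list.

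H3K4me3 in NUP98-HOXA9 was kept at nearly all of these genes and lay at some more. It stood at 42 genes after VTP50469 (38.7% of all) and at 38 in DMSO (37.3% of all). Of 38 ends 1 was lost (2.63%, interval 0.466% to 13.5%), against 3.95%, and 5 of the 11 ends without a DMSO region gained one, against 4.64%. Pole2, a subunit of polymerase epsilon, was the lost gene, with 0 bp after VTP50469 and 420 bp in DMSO. Mcm2, Orc5, Pold2 and Rfc3 had none in DMSO and gained 578 bp, 430 bp, 417 bp and 328 bp after VTP50469. The fifth gained end was at Lig1, with 1213 bp after VTP50469 and 1036 bp in DMSO, where the DMSO cover lay more than 1 kb from a gene end.

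Cover by H3K4me3 summed to 47952 bp after VTP50469 and 42433 bp in DMSO, or 113%, against 108% over all genes. Of the 42 genes with DMSO cover 24 were longer and 18 shorter, against 56.3% and 43.4% of all, and only Pole2 was at or below 50%, against 5.68%. The 6 helicase genes had 6696 bp after VTP50469 and 4091 bp in DMSO (164%). Mcm4 had 1175 bp after VTP50469 and 321 bp in DMSO (366%), in 2 regions after VTP50469 and 1 in DMSO, and Mcm7 had 1691 bp after VTP50469 and 646 bp in DMSO (262%), while Mcm3 had 700 bp after VTP50469 and 902 bp in DMSO and Mcm5 824 bp after VTP50469 and 1055 bp in DMSO. Mcm4 shares its promoter region with Prkdc. Cdt1, which brings the helicase to origins, had 1303 bp after VTP50469 and 819 bp in DMSO (159%), and Pcna had 1895 bp after VTP50469 and 1346 bp in DMSO (141%). Rfc5 had 319 bp after VTP50469 and 570 bp in DMSO (56.0%). Rrm1, the large subunit of ribonucleotide reductase, had 556 bp after VTP50469 and 1064 bp in DMSO (52.3%). The longest DMSO cover was at Rrm2 (2346 bp after VTP50469 and 1984 bp in DMSO), Ccne2 (2204 bp after VTP50469 and 1947 bp in DMSO) and Orc3 (1460 bp after VTP50469 and 1870 bp in DMSO). Libraries of MLL1 and H3K4me3 differ in time, so no gene-by-gene relation between them was drawn.

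The other helicase subunits kept MLL1 at a gene end in the lines treated at 2 µM, and their covered lengths follow. Mcm2 had 596 bp after VTP50469 and 593 bp in DMSO in NUP98-HOXA9, 586 bp after VTP50469 and 661 bp in DMSO in NUP98-HOXD13 and 508 bp after VTP50469 and 605 bp in DMSO in NUP98-JARID1A. Mcm3 had 766 bp after VTP50469 and 638 bp in DMSO in NUP98-HOXA9, 423 bp after VTP50469 and 715 bp in DMSO in NUP98-HOXD13 and 623 bp after VTP50469 and 709 bp in DMSO in NUP98-JARID1A. Mcm4 had 877 bp after VTP50469 and 1005 bp in DMSO in NUP98-HOXA9, 803 bp after VTP50469 and 1189 bp in DMSO in NUP98-HOXD13 and 980 bp after VTP50469 and 1014 bp in DMSO in NUP98-JARID1A. These 3 genes had shorter cover after VTP50469 in NUP98-HOXD13 and NUP98-JARID1A alike. Mcm5 had 879 bp after VTP50469 and 850 bp in DMSO in NUP98-HOXA9, 524 bp after VTP50469 and 823 bp in DMSO in NUP98-HOXD13 and 951 bp after VTP50469 and 339 bp in DMSO in NUP98-JARID1A. The cover of Mcm5 after VTP50469 includes an away region, of 231 bp in NUP98-HOXA9 and 381 bp in NUP98-JARID1A. Its region at the start was 648 bp after VTP50469 and 850 bp in DMSO in NUP98-HOXA9, and 570 bp after VTP50469 and 339 bp in DMSO in NUP98-JARID1A. Mcm7 had 1534 bp after VTP50469 and 1309 bp in DMSO in NUP98-HOXA9, 936 bp after VTP50469 and 1203 bp in DMSO in NUP98-HOXD13 and 1470 bp after VTP50469 and 795 bp in DMSO in NUP98-JARID1A. Mcm5 and Mcm7 had shorter cover in NUP98-HOXD13 and longer in NUP98-JARID1A. NUP98-NSD1 had no MLL1 at Mcm2, Mcm5 or Mcm7 in either condition, and none after VTP50469 at Mcm3 and Mcm4, where DMSO cover was 270 bp at Mcm3 and, at Mcm4, 281 bp.

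Menin at the helicase genes of NUP98-HOXD13 was shorter after VTP50469 at all 6, from 332 bp after VTP50469 and 612 bp in DMSO at Mcm5 to 1457 bp after VTP50469 and 1613 bp in DMSO at Mcm7. In NUP98-HOXA9, Menin covered none of them after VTP50469, and in DMSO it covered 444 bp of Mcm2, 310 bp of Mcm3, 519 bp of Mcm4 and 512 bp of Mcm7 and lay at neither Mcm5 nor Mcm6.

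Fen1, the nuclease that trims the flaps of Okazaki fragments, had 709 bp of MLL1 after VTP50469 and 1220 bp in DMSO in NUP98-HOXA9, 683 bp after VTP50469 and 873 bp in DMSO in NUP98-HOXD13, and 900 bp after VTP50469 and 715 bp in DMSO in NUP98-JARID1A. The direction in each line was that of the summed cover. Cdt1 kept its length nearly whole in NUP98-HOXA9, with 1074 bp after VTP50469 and 1046 bp in DMSO, and in NUP98-HOXD13, with 824 bp after VTP50469 and 880 bp in DMSO, and was longer in NUP98-JARID1A, with 1474 bp after VTP50469 and 956 bp in DMSO. In NUP98-NSD1, Fen1 had no MLL1 in either list and Cdt1 had none after VTP50469 and 377 bp in DMSO.

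Other genes of replication were counted in the same way, from a list that does not overlap the 49. Of 57 such genes, a list of accessory polymerase subunits, loading, fork protection and nucleotide supply factors and G1/S regulators, MLL1 lay at 54 after VTP50469 and 55 in DMSO in NUP98-HOXA9, with 1 lost and 69.1% of the summed cover kept. In NUP98-HOXD13 it lay at 51 after VTP50469 and 55 in DMSO, with 4 lost and 59.3% kept. In NUP98-JARID1A it lay at 55 after VTP50469 and 50 in DMSO, with 0 lost and 117% kept. In NUP98-NSD1 it lay at 5 after VTP50469 and 32 in DMSO, with 28 lost and 8.92% kept. Rnaseh2a and Rnaseh2c, subunits of an enzyme that removes RNA from DNA and named after their values were seen, each lost MLL1 in 2 lines, NUP98-HOXD13 and NUP98-NSD1 for Rnaseh2a and NUP98-HOXA9 and NUP98-NSD1 for Rnaseh2c. By comparison, 13 menin-MLL leukaemia targets kept 33.5%, 17.7% and 74.1% of their MLL1 cover in NUP98-HOXA9, NUP98-HOXD13 and NUP98-JARID1A. For 32 proteasome subunit genes it was 80.9%, 66.6% and 102%. The order was another in NUP98-NSD1, where the targets kept 21.3% and the proteasome genes 13.5%, against 7.12% for the DNA replication genes. These differences between gene lists were not tested.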

How the data were processed

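ChIP-seq libraries of MLL1, Menin and H3K4me3 with deposited peak lists were analysed, 14 of the 24 libraries; the 10 input libraries were not analysed here. The submitters' processing notes name build mm10 and the tools bcl2fastq 2.20.0.422, MACS2, bedtools, SAMtools, Picard 2.9.4 and STAR 2.7.5a. Their roles, their settings and the input set against each library are not stated there. The lists are per library and hold intervals, a deposited fold ratio at the summit, deposited −log10 p and q values and a deposited score. The score is the −log10 q rescaled and was not used. No list held a −log10 q below 2.00. A longer list holds weaker regions, so a region can be absent from a list because of its length or depth.

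Gene spans came from the RefSeq table (GRCm38.p6), which has no strand, so a region at either gene end (1 kb either side, overlap of at least 1 bp) was counted in place of the 5′ end first planned; starts and strand came from RefSeq promoters. Covered length is the gene plus 2 kb flanks. Groups came from the labels. With 1 library per condition no test was run, and 95% Wilson intervals cover counting error over genes only, which are not replicates. The interval code was tested on simulated data. The 49 genes, the comparison lists and the alternatives were chosen with earlier results of these data known, and the shares of E2F cores and of genes without flanks over all genes were added after seeing the data. Values are given for genes whose end was lost or gained, for the 3 longest, lowest and highest in a pair (at least 300 bp in DMSO, ties in name order), and for Mcm2 to Mcm7 and Pcna. Alternatives were lists cut to equal length, a deposited −log10 q of at least 5, summits in place of regions, 500 bp windows, RefSeq starts only and no flank. Python 3.11.15, pandas 2.3.3, numpy 2.4.6, scipy 1.17.1 and matplotlib 3.10.9 were used.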

Additional observations from a re-analysis of the deposited data

Results flagged for a closer look

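The lines differed in the direction of the change in MLL1 cover. Summed over the DNA replication genes, covered length after VTP50469 was 71.1% of DMSO in NUP98-HOXA9, 64.4% in NUP98-HOXD13 and 7.12% in NUP98-NSD1, and 116% in NUP98-JARID1A. The difference between the lines was not tested, since each condition has 1 library. Over all protein-coding genes the sums lay in the same directions, and the lists of NUP98-JARID1A held 24950 regions after VTP50469 and 15765 in DMSO. In lists cut to equal length NUP98-HOXA9 stood at 71.8%, NUP98-HOXD13 at 70.0%, NUP98-NSD1 at 83.8% and NUP98-JARID1A at 107%. The NUP98-NSD1 value is not a share kept, since its treated sum includes Cdk2, which had no DMSO cover. The 2 genes with a gene-end region in that cut DMSO list lost it.

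Prim2 had 13.9% of its DMSO MLL1 length in NUP98-HOXD13 and 282% in NUP98-JARID1A, where it was 748 bp after VTP50469 and 265 bp in DMSO. The difference was not tested.

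Ccne2 had 38% of its DMSO MLL1 length in NUP98-HOXA9, after 72 h, and 226% in NUP98-JARID1A, after 96 h. The difference was not tested.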

How the results depend on the processing

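No paired analysis was possible because every label carries the same replicate number and each condition has 1 library. Each count was recomputed with 1 choice changed at a time; 92 values of the main counts stayed within 1.5 times and 18 did not. Percentages of lost ends, here and below, are of all protein-coding genes with a DMSO region at a gene end at that setting. With both lists of a pair cut to equal length, gene ends lost became 2 in NUP98-NSD1 (24 before, 65.8% of all). They became 0 for Menin in NUP98-HOXA9 (33 before, 60.0% of all) and 2 in NUP98-JARID1A (0 before, 10.4% of all). Genes at or below 50% of DMSO length then became 2 in NUP98-NSD1 (30 before), 0 for Menin in NUP98-HOXA9 (37 before) and 2 in NUP98-JARID1A (1 before). In those cut lists only 2 genes had MLL1 in NUP98-NSD1 in DMSO and 0 had Menin in NUP98-HOXA9, so fewer genes could be lost by construction. The summed cover in NUP98-NSD1 was then 83.8% of DMSO, although the 2 genes lost their gene-end region. The treated sum includes Cdk2, which had no DMSO cover, so 83.8% is not a share kept. Cdc45 in NUP98-JARID1A was at 79.9% (251% before); the cause was not tested. Away regions lost, added after seeing the data, became 2 in NUP98-HOXD13 (6 before) and 0 in NUP98-NSD1 (8 before). No gene was then at or below 50% in all 3 lines at 2 µM (1 before). Shares over all genes were not computed for covered lengths and away regions in equal-length lists or at a −log10 q of at least 5. Those counts have no background beside them.

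With summits in place of regions, ends lost were 1 in NUP98-HOXA9 (4.07% of all), 1 in NUP98-HOXD13 (12.1% of all, 0 before in both) and 2 for H3K4me3 (5.08% of all, 1 before). With 500 bp windows they were 1 for MLL1 in NUP98-HOXA9 (4.25% of all), 1 for MLL1 in NUP98-HOXD13 (12.5%) and 1 for Menin in NUP98-HOXD13 (9.26%), with 0 before in each. At a −log10 q of at least 5, H3K4me3 had 0 ends lost (4.15% of all) and 0 genes at or below 50% (1 before in each), and away regions were lost at 5 genes in NUP98-NSD1. Without flanks, genes at or below 50% became 16 for MLL1 in NUP98-HOXD13 (7 before; 38.6% of all) and 6 for Menin there (2 before; 19.2% of all), and the cover kept became 2.39% in NUP98-NSD1 and 0% for Menin in NUP98-HOXA9 (1.36% before). Counted at RefSeq starts only, Menin after VTP50469 in NUP98-HOXA9, alone or with MLL1, lay at 0 genes (1 before). Of 233 covered lengths of named genes, 213 stayed within 1.5 times. Read depth is unknown and the lists differ in length, which limits every count of lost regions.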
